A study of Drosophila melanogaster with 4 samples.

Results

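Accessible regions deep inside long genes were compared between flight muscle of a Pgk mutant and of its control strain in Drosophila melanogaster. A region is the stretch covered by peaks of the 4 libraries that share at least 1 bp. It belonged to the set if it lay in 1 of 3 windows, on 2L from 500000 to 22000000, on 3L from 500000 to 22900000 or on 3R from 4200000 to 31579331. Its midpoint also had to lie inside an annotated gene and at least 10 kb from every annotated gene end (release 6 of the genome). Of 44429 regions on the main chromosome arms, 1973 met this rule (4.44%). They made up 8.53% of the regions in the windows, and the remaining 21156 regions of the windows served for comparison. The rule used position, and not the genotype, strength or number of libraries of a call, although a region exists only where at least 1 library has a peak. The 3 members nearest to the limit lay 10005, 10006 and 10013 bp from a gene end, in Con, InR and Ac76E, and had a peak in 1, 3 and 1 libraries. The 3 regions inside a gene that missed it most narrowly lay at 9995, 9990 and 9988 bp, in hoe1, CG6051 and Mob2, and had a peak in 1, 1 and 2 libraries.

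The mutant group held 2 libraries of genotype w[1118];Pgk[Delta.E2F]; + from a single line, line 12, in which an E2F site upstream of Pgk is mutated. The control group held 2 libraries of w[1118], the strain background that both groups share. Pgk encodes the glycolytic enzyme phosphoglycerate kinase. Flight muscle was dissected from the thorax of pharate animals, which are fully formed but still in the pupal case, at 96 h after pupa formation at 25 °C. Each library pooled nuclei from at least 40 animals, and the labels number the libraries without saying whether they came from separate crosses or days, so p-values measure the spread between libraries only. ATAC-seq was the assay: a transposase cuts and tags DNA that is not covered by nucleosomes, so a peak marks accessible chromatin.

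Long genes of flies are mostly developmental regulators, cell surface receptors, channels and giant structural proteins. Their introns are known to hold enhancers, which transcription factors open in particular cells and stages, and further start sites within the gene. Accessible sites far from any annotated gene end are therefore usually read as candidate regulatory elements. The annotation used here gives the limits of genes and not their exons, so a site below is placed inside a gene and not in an intron or exon.

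The deposited lists held 26186 and 26880 peaks in mutants 1 and 2, and 30300 and 30787 peaks in controls 1 and 2. The background recovered from the fold and p of each peak was 4.62 and 5.26 fragments per position in the mutants against 7.44 and 7.61 in the controls. This background stands in for depth, and both mutants were below both controls in it, as in the number of peaks. Of 17 flight muscle genes taken as markers, 14 and 15 had a peak within 500 bp of an end in the mutants against 15 and 15 in the controls. Mf was the single one with none in any library. Of 8 neuronal genes, 1 and 2 had such a peak in the mutants against 3 and 3 in the controls. The gene elav had one in every library, while Syt1, brp, Rdl and VGlut had none. All of the 4 fat body genes had one in at least 1 library (4 and 3 in the mutants, 3 and 4 in the controls). Of 5 hemocyte genes, 3 and 2 had one in the mutants against 2 and 2 in the controls. Among these, srp and Pxn had one in every library and He in mutant 1 only, while Hml and NimC1 had none. Of 4 glial genes 3 had one in every library. Tracheal, tendon and epidermal, and germ line genes numbered 3, 5 and 2, of which 2 and 1, 3 and 4, and 0 and 0 had one in the mutants, against 1 and 1, 5 and 5, and 1 and 1 in the controls. In bulk tissue, fewer cells of a type and less open chromatin per cell cannot be told apart.

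Fewer peaks lay deep inside long genes in the mutants. The deep regions contained 1126 and 1092 peaks in mutants 1 and 2, against 1331 and 1409 peaks in controls 1 and 2. Both mutants were below both controls. The mutant mean was 1109 ± 24.0 and the control mean 1370 ± 55.2 peaks (SD, n = 2 each), a difference of -261 peaks and a ratio of 0.809 (two-sided p = 0.333 by exact permutation of the libraries, the floor of a 2 against 2 design). The same ratio over all peaks of the windows was 0.844. With lists of equal length the deep peaks numbered 1126 and 1068 in the mutants against 1142 and 1188 in the controls. With lists matched for the recovered background they numbered 1126 and 1091 in the mutants against 1246 and 1305 in the controls. The order of the groups was the same in both, while the difference was -68 and -167 peaks.

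As a share of each library's peaks in the windows, deep peaks differed little. They made up 8.52% and 8.82% in the mutants against 9.08% and 8.98% in the controls. The mean was 8.67% ± 0.214 in the mutants against 9.03% ± 0.0775 in the controls (SD, n = 2 each), a difference of -0.362 percentage points (two-sided p = 0.333, exact permutation). The groups did not overlap. When peaks under a −log10 q of 5 were left out, the difference was 0.167 points, with 9.37% and 9.26% in the mutants against 9.17% and 9.12% in the controls, so the order of the genotypes turned without the weak peaks.

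**Figure D1:**
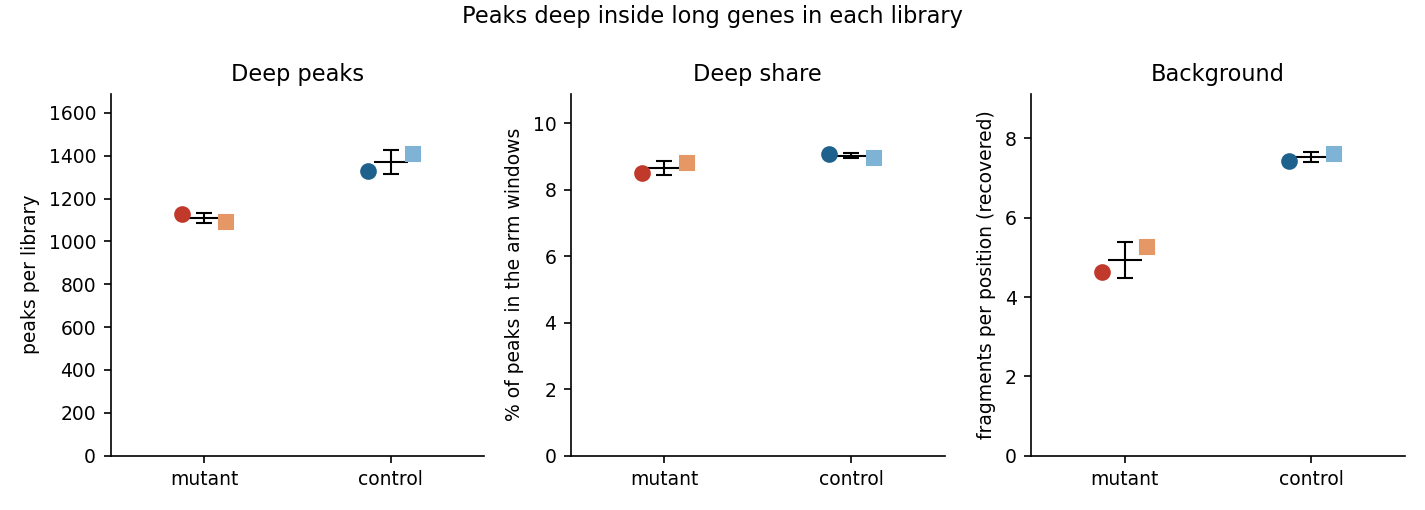
Number of peaks in deep regions (left), their percent of the library's peaks in the arm windows (middle) and the recovered background in fragments per position (right) for each library; horizontal marks and bars give the mean and SD of 2 libraries. The mutants sit at 1126 and 1092 deep peaks and the controls at 1331 and 1409, while the shares lie between 8.52% and 9.08% and the background is lower in both mutants.

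Deep peaks also covered less sequence in the mutants. They spanned 190 and 202 kb in the mutants against 264 and 286 kb in the controls. That was 2.26% and 2.41% of the deep sequence in the mutants against 3.15% and 3.41% in the controls. The ratio of the means was 0.712. The median deep peak measured 127 and 129 bp in the mutants against 145 and 149 bp in the controls (difference of means -19 bp, two-sided p = 0.333, exact permutation). The background was lower in the same libraries, and its part in the width was not tested.

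Deep sequence was more sparsely accessible than the rest of the windows. It amounted to 8.39 Mb, 11.8% of the 71.3 Mb of the windows, and held 23.5 regions per 100 kb against 33.6 per 100 kb elsewhere. Per library there were 134 and 130 deep peaks per Mb in the mutants against 159 and 168 in the controls. The rest of the windows held 192 and 179 peaks per Mb in the mutants against 212 and 227 in the controls. The deep density was lower in 4 of 4 libraries, by 54.9 ± 4.59 peaks per Mb (SD, n = 4; exact sign-flip test, two-sided, p = 0.125, the smallest that 4 libraries allow).

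Within genes, peak density fell with distance from a gene end and then levelled off. Positions within 500 bp of an end held 28.6 and 29.4 peaks per 100 kb in the mutants against 35.2 and 36.1 in the controls. From 5 to 10 kb there were 15.9 and 14.2 in the mutants against 16.7 and 19.0 in the controls. Beyond 30 kb there were still 11.9 and 12.4 in the mutants against 15.6 and 15.2 in the controls. In each of the 4 distance classes beyond 10 kb, and from 5 to 10 kb, both mutants lay below both controls. From 500 bp to 5 kb they did not, because mutant 1 was above control 1 in those 3 classes, with 18.9 against 17.2 peaks per 100 kb from 2 to 5 kb. The ratio of the mutant to the control mean was 0.935 from 1 to 2 kb, 0.816 from 10 to 15 kb and 0.784 beyond 30 kb. Within 500 bp of an end it was 0.814, so the lower ratio was not confined to the deep classes, and the difference between classes was not tested.

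**Figure D2:**
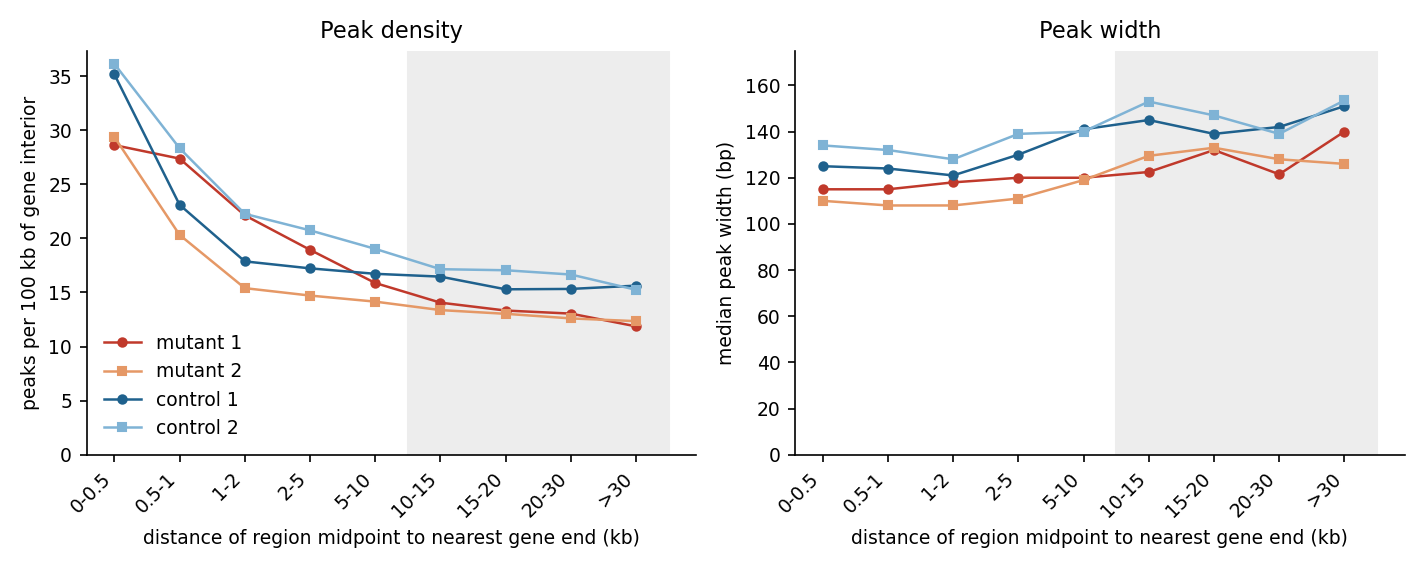
Peaks per 100 kb of gene interior (left) and median peak width in bp (right) by the distance of the region midpoint to the nearest gene end, 1 line per library, with the deep classes shaded. Density falls to between 11.9 and 17.2 peaks per 100 kb in the shaded classes, where both mutants lie below both controls; width is 121.5 bp or more there.

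Deep peaks were slightly wider than other peaks of the same library. The rest of the windows had median widths of 117 and 112 bp in the mutants against 127 and 133 bp in the controls. The excess of deep peaks was 10 and 17 bp in the mutants against 18 and 16 bp in the controls, or 15.2 ± 3.59 bp (SD, n = 4; exact sign-flip test, two-sided, p = 0.125). Peaks between genes, at least 10 kb from any gene end in the same windows, were of like width, with medians of 122 and 135 bp in the mutants against 153 and 142 bp in the controls; there were 344 such regions.

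How strong deep peaks were relative to others varied between libraries. Their median rank by −log10 p, counted from the top of the list (0% is the strongest peak), was 48.7% and 49.8% in the mutants against 49.5% and 51.99% in the controls. Elsewhere it was 54.7% and 49.5% in the mutants against 48.3% and 52.8% in the controls. The difference was -1.32 ± 3.20 percentage points (SD, n = 4; exact sign-flip test, two-sided, p = 0.75), below 0 in 2 libraries. It came mostly from mutant 1, and without that library it was 0.278 points. The authors' fold enrichment had a median of 4.09 and 4.40 at deep peaks in the mutants against 4.15 and 3.72 in the controls.

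A larger part of the deep peaks than of the other peaks of the windows recurred in all libraries. Of the deep peaks, 61.3% and 63.4% in the mutants against 49.8% and 45.5% in the controls lay in a region called in all 4 libraries. For other peaks of the windows the shares were 52.7% and 57.4% in the mutants against 46.7% and 42.9% in the controls. The excess was 8.55 and 6.01 points in the mutants against 3.12 and 2.62 in the controls, on average 5.07 ± 2.76 points (SD, n = 4; exact sign-flip test, two-sided, p = 0.125). The 4 values share the same regions and are not independent. The average was 2.29 points without mutant 1, 2.92 with regions built from summits, 3.05 for peaks with −log10 q of 5 or more and 3.07 at 5000 bp or more from gene ends. Of the 344 intergenic regions as far from gene ends, 33.4% were called in all 4 libraries, against 31.2% of the deep regions. Among regions inside genes the share was 30.1% within 500 bp of an end, near that of the deep regions. It was 21.5%, 19.9% and 22.9% in the 3 classes from 500 bp to 5 kb, and 28.1% from 5 to 10 kb.

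By regions, 616 of the 1973 members (31.2%) were called in all 4 libraries, 287 (14.5%) in 3, 317 (16.1%) in 2 and 753 (38.2%) in 1 library. Over all main-arm regions the shares were 30.3%, 15.5%, 17.2% and 37.0%, close to those of the members. Regions of all 4 libraries had a median length of 278.5 bp and those of 1 library 85 bp, a length to which the joining of peaks adds by construction. The members spread over the 3 arms in much the same way. There were 530 on 2L, 632 on 3L and 811 on 3R, or 22.1, 25.2 and 23.3 per 100 kb of deep sequence, with 30.6%, 30.5% and 32.2% called in all 4 libraries.

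The members fell in 336 host genes, of which 328 encode proteins. A further 124 genes had deep sequence and no region. The median host held 4 regions, 73 held 1, 64 held at least 10 and 19 held at least 20. The 15 leading hosts held 406 regions (20.6%). Of all members, 153 (7.75%) lay in more than 1 overlapping gene and were counted for each.

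Of the hosts, 161 had at least 5 deep regions. Of these, 56 (34.8%) had fewer called regions in both mutants than in both controls, against 26.8% of the 1119 genes of the windows with at least 5 regions inside. The reverse held for Mob2 alone, with 3 and 4 regions called in the mutants against 2 and 1 in the controls, which is 0.621% of the hosts against 2.41% of those genes. The share of hosts that were lower in both mutants was thus somewhat above the background, and it moved with list length. Matched for background it was 43 of 151 (28.5%) against 20.7% of genes, and at equal list length 33 of 140 (23.6%) against 15.7%. With −log10 q of at least 5 it was 51 of 129 (39.5%) against 37.2%. The share of hosts higher in both mutants was 2.65% against 4.02% of genes when matched for background. At equal list length it was 11 of 140 (7.86%) against 7.66%, and with −log10 q of at least 5 it was 1.55% against 1.30%. In those 2 settings this share was not below that of the genes. The hosts are themselves among the genes of the windows, and no test was made of the difference. Overlapping genes with the same regions, such as Glut4EF and CG46467, were counted separately. Hosts and genes were not matched in their number of regions, on which such a separation can depend.

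The gene with the most deep regions was fru, at 3R:18414273-18545586, which encodes BTB zinc-finger transcription factors best known for sex-specific neural circuits. It had 47 regions, with a peak in 30 and 27 of them in mutants 1 and 2 and in 34 and 35 in controls 1 and 2. Next were the overlapping genes Glut4EF and CG46467, at 3R:9874681-9995364 and 3R:9874681-9988876, with the same 42 regions, called in 24 and 23 cases in the mutants against 38 and 30 in the controls. In both loci both mutants were below both controls. Nearly a like number, 38, lay in dpy, at 2L:4477462-4614300, which encodes a giant protein of the apical extracellular matrix. They had a peak in 14 and 20 cases in the mutants against 19 and 16 in the controls, so the groups overlapped. In Msp300, at 2L:5100877-5207002, which encodes a giant nesprin that links nuclei to the cytoskeleton in muscle, 18 and 19 of 35 regions were called in the mutants against 20 and 19 in the controls. Svil, a gene of the villin family of actin-binding proteins, had 31 regions, of which 14 and 17 were called in the mutants against 24 and 21 in the controls. Snoo, a gene for a Sno-type regulator of TGF-beta signalling, had 25, of which 15 and 18 were called in the mutants against 17 and 17 in the controls. The groups stayed apart in Svil and overlapped in Snoo.

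**Figure D3:**
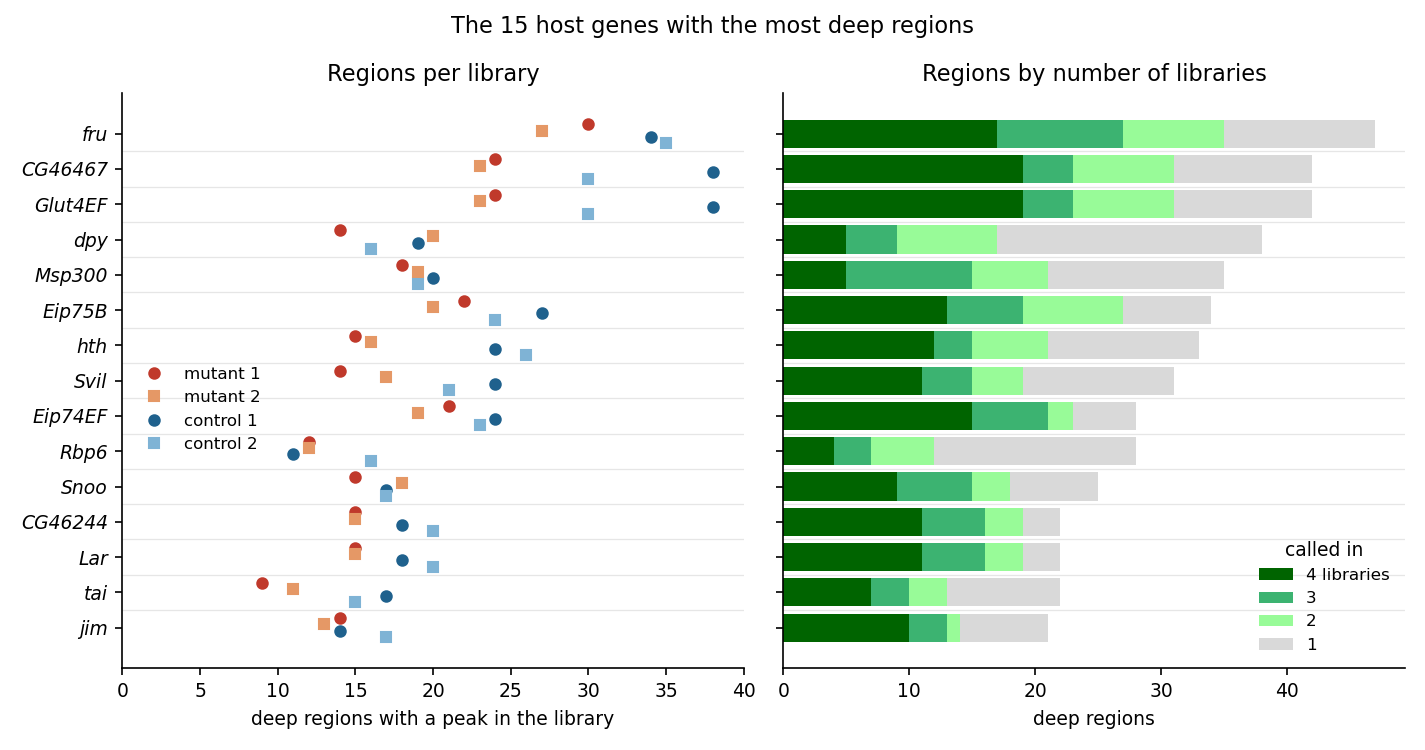
The 15 genes with the most deep regions. Left, number of deep regions with a peak in each library; right, the same regions by the number of libraries that called them. In fru, Glut4EF, hth, Svil and tai both mutants lie left of both controls, whereas the libraries overlap in dpy, Msp300 and Rbp6, most of whose regions were called in 1 or 2 libraries.

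Genes for transcription regulators held deep regions most densely among the 6 lists of long genes. Of 81 genes on the list, 32 had deep sequence on the 3 arms and 24 were hosts. They held 289 regions, or 35.3 per 100 kb of their deep sequence, against 23.5 per 100 kb over all genes. The median over their genes was 25.2 per 100 kb, against 17.7 over all genes with deep sequence. In these hosts 41.9% of regions were called in all 4 libraries, against 31.2% of all members. The regions with a peak numbered 167 and 171 in the mutants against 220 and 218 in the controls, a ratio of 0.772 that was close to the 0.773 of all members.

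After fru, the list's leading genes were Eip75B, hth and Eip74EF. Eip75B and Eip74EF are known as early response genes of ecdysone, the steroid hormone that times the moults and metamorphosis of insects. In Eip75B, a nuclear receptor gene at 3L:17950953-18064696, 22 and 20 of 34 regions were called in the mutants against 27 and 24 in the controls. In Eip74EF, an ETS factor gene at 3L:17558672-17619325, 21 and 19 of 28 were called in the mutants against 24 and 23 in the controls. Both genes had both mutants below both controls. Their densities were 72.8 and 68.9 regions per 100 kb. Other genes named for ecdysone or its response, picked after their values were seen, ranged widely. Eip93F, off the list, had 20 regions, with 7 and 9 called in the mutants against 13 and 15 in the controls. Eip78C had 8, ftz-f1 had 6, Eip63E had 3 and Hr38 had 1, while Hr39 had none in 1.31 kb.

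The homeobox gene hth, whose product is known to act with Exd in fixing the fibrillar fate of flight muscle, held 33 regions. They had a peak in 15 and 16 cases in the mutants against 24 and 26 in the controls. Of the 33, 5 were called in both controls and neither mutant, a pattern of 7.096% of all members and 5.93% of all regions. It was not particular to hth, as Glut4EF had 7 such regions of 42. The steroid receptor coactivator gene tai had 22, called in 9 and 11 cases in the mutants against 17 and 15 in the controls. In hth and in tai the groups did not overlap. Pdp1, a gene for a PAR bZIP factor that was named after its values were seen, had 18 regions, called in 12 and 14 cases in the mutants against 18 and 17 in the controls, and 12 of the 18 were called in every library. The zinc-finger gene jim had 21 regions in 25.9 kb, 80.9 per 100 kb, with 14 and 13 in the mutants against 14 and 17 in the controls.

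Muscle structure and attachment genes had 71 deep regions in 7 of 9 genes with deep sequence, at 29.4 per 100 kb. Called regions numbered 43 and 35 in the mutants against 39 and 45 in the controls, so the groups overlapped, and the ratio of the means was 0.929. The genes differed in how constant their regions were. In Lmpt, which encodes the LIM-domain protein Limpet and lies at 3L:16865295-16922487, all 9 regions were called in all 4 libraries. In Dys, the dystrophin gene at 3R:19461085-19597288, 12 and 3 of 17 regions were called in the mutants against 3 and 10 in the controls, and 2 in all 4. Mutant 1 and control 2 were the high libraries there, 1 from each genotype. In no other host of the list did a mutant have more called regions than a control. The overlap of the groups over the whole list thus rested on Dys.

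In sls, the gene of a titin-like spring protein of the sarcomere, 2 and 3 of 6 deep regions were called in the mutants against 4 and 4 in the controls. One of these, 3L:2063692-2069702, was the longest member, with 6011 bp. Mutant 1 had 4 peaks in it and the other libraries 1 each, and its best peak ranked in the top 6.47% and 1.35% of the mutant lists and 5.74% and 5.97% of the control lists. wb, a laminin gene, had 2 regions, with none called in either mutant and 1 in each control. Mhc, the muscle myosin heavy chain gene, named after its values were seen, has only 2201 bp of deep sequence and had 1 region, called in all 4 libraries.

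Long genes of RNA-binding regulators were sparsely covered. Of 12 genes with deep sequence 10 were hosts, with 121 regions in 824 kb, or 14.7 per 100 kb. Called regions numbered 60 and 57 in the mutants against 71 and 87 in the controls. Rbp6, a Musashi-type gene, led with 28 regions, called in 12 and 12 cases in the mutants against 11 and 16 in the controls. In bru1, whose product directs flight-muscle splicing, 10 and 7 of 19 regions were called in the mutants against 11 and 16 in the controls. Its relative bru3 had the most deep sequence of any gene, 194 kb, and 18 regions, called in 10 and 9 cases in the mutants against 12 and 12 in the controls. That was 9.30 per 100 kb, against 20.4 in bru1. In shep, 5 and 8 of 16 regions were called in the mutants against 9 and 13 in the controls, and in Rbfox1, a splicing factor gene, 5 and 5 of 12 in the mutants against 10 and 8 in the controls.

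Genes for adhesion and wiring receptors, many but not all of which act in neurons, had the lowest density, 12.1 per 100 kb. They held 105 regions in 26 of 35 genes, with 55 and 43 called in the mutants against 51 and 72 in the controls, and 23.8% were called in all 4 libraries. Lar, a receptor tyrosine phosphatase gene, held 22 of the 105, shared with the overlapping CG46244, and 15 and 15 were called in the mutants against 18 and 20 in the controls. CadN, for N-cadherin, had 13 regions in 89.8 kb, with 7 and 8 in the mutants against 8 and 9 in the controls. None of the 10 regions of Ten-m, a teneurin gene, was called in all 4 libraries, and 5 and 1 were called in the mutants against 4 and 9 in the controls. Ptp99A had 9 regions, with 4 and 2 in the mutants against 5 and 6 in the controls. Con had 6, with 2 and 3 in the mutants against 1 and 3 in the controls. Ion channel and synaptic genes had 39 regions in 10 of 14 genes, 15.6 per 100 kb, with 24 and 18 in the mutants against 24 and 29 in the controls. Dop1R1, a dopamine receptor gene, had 9 of these, with 6 and 7 in the mutants against 8 and 8 in the controls. Rim had 8, with 6 and 4 in the mutants against 4 and 6 in the controls. Octbeta2R had 7, with 4 and 3 in the mutants against 7 and 4 in the controls. In nAChRalpha6, 2 and 1 of 5 were called in the mutants against 1 and 3 in the controls. In Rdl, 2 and 2 of 3 were called in the mutants against 2 and 3 in the controls. Among the named ion channel and synaptic genes only Dop1R1 had both mutants below both controls. Among the named adhesion and wiring genes this held for Lar and Ptp99A. Neuronal markers, as given above, mostly had no peak at their ends, and their part in these values was not tested.

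Signalling and cytoskeletal genes lay near the average. They held 222 regions in 31 of 35 genes, 25.6 per 100 kb, with 119 and 113 in the mutants against 127 and 153 in the controls. Ank2, for an ankyrin, had 20 regions in 19988 bp, the densest cover among these 5 leaders, with 8 and 9 in the mutants against 10 and 13 in the controls. scrib, a cell polarity gene, also had 20, with 8 and 9 in the mutants against 10 and 15 in the controls. The RhoGAP gene cv-c and osp had 15 each, and pyd, for a junction scaffold, had 13. In cv-c 8 and 8 were called in the mutants against 9 and 10 in the controls, in osp 8 and 9 in the mutants against 12 and 9 in the controls, and in pyd 10 and 7 in the mutants against 8 and 10 in the controls.

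**Figure D4:**
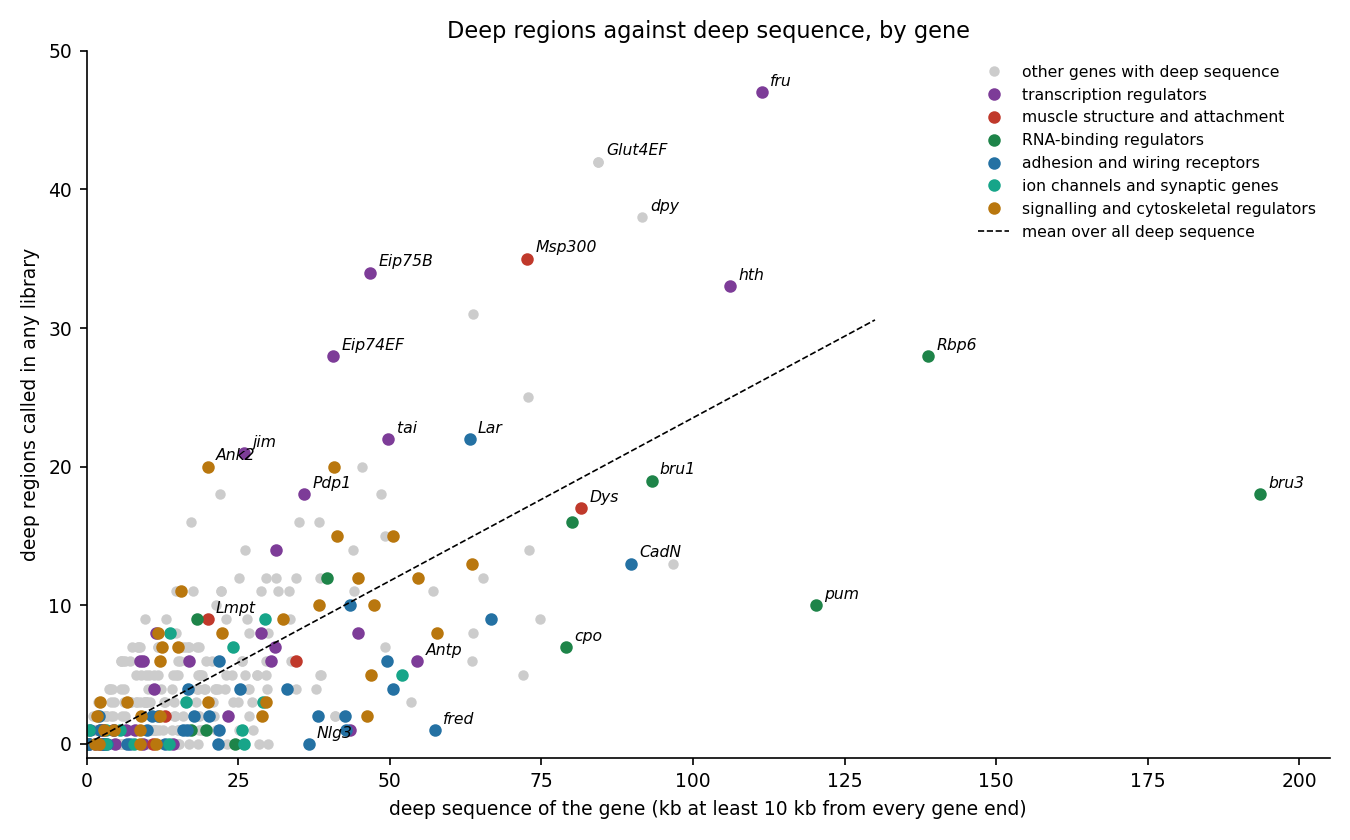
Deep regions called in any library against the gene's deep sequence in kb, 1 point per gene with deep sequence, coloured by list; the dashed line is the mean of 23.5 regions per 100 kb. Eip75B, Eip74EF, fru and Msp300 lie above the line, and bru3, bru1 and CadN lie below it.

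The host genes differed widely in how constant their regions were. Among the 64 hosts with at least 10 regions, the share called in all 4 libraries ran from 0% to 81.8% with a median of 33.3%. The genes at the ends of this order were named after their values were seen. The highest shares were in ps, a splicing factor gene (9 of 11), Doa, a kinase gene (8 of 11), Pdp1 (12 of 18) and Pde11 (10 of 16). In Pde11, a phosphodiesterase gene, 13 and 13 regions were called in the mutants against 12 and 14 in the controls. At the other end, none of the 12 regions of sif or of the 10 of Ten-m was called in all 4. Besides Lmpt, tara was the single host with at least 5 regions in which every region was called in every library, and 20 such hosts had no region of that kind. dpy, Msp300 and Rbp6 had many regions of which few were called in all 4 libraries, with 5 of 38, 5 of 35 and 4 of 28.

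Regions specific to 1 genotype were mostly control-only. Of the 1973 members, 17 (0.862%) were called in both mutants and neither control, against 1.76% of all 44429 regions of the main arms. The reverse, both controls and neither mutant, held for 140 (7.096%) against 5.93% of all regions. For the rest of the windows the shares were 1.63% and 6.48%. Matched for the background, 22 (1.17%) were mutant-only, against 2.11% of all regions, and 122 (6.50%) control-only, against 5.28%. At equal list length the 31 mutant-only members (1.76%) stood against 2.65% of all regions, and the 103 control-only members (5.85%) against 4.49%. Regions are not replicates, so these shares describe the 4 libraries. Mixed pairs also had regions of their own. Mutant 1 and control 2 alone shared 62 members (3.14%, against 3.56% of all regions), and mutant 2 and control 1 alone 39 (1.98% against 2.89%). Mutant 2 and control 2 alone shared 35 (1.77% against 1.71%), and mutant 1 and control 1 alone 24 (1.22% against 1.34%). A call was missing in mutant 1 alone in 161 members (8.16% against 9.14%) and in mutant 2 alone in 79 (4.004% against 3.25%). It was missing in control 1 alone in 29 (1.47% against 1.78%) and in control 2 alone in 18 (0.912% against 1.32%).

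**Figure D5:**
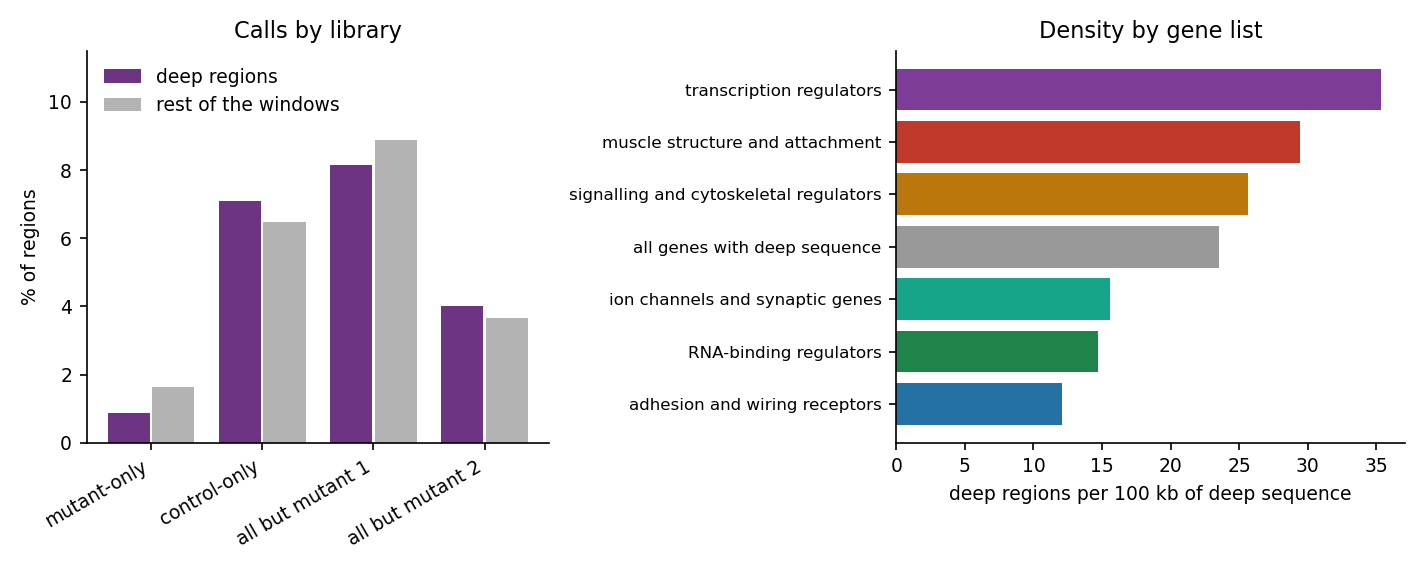
Left, percent of deep regions and of the other regions of the windows called in both mutants only, in both controls only, and in all libraries but 1 mutant. Right, deep regions per 100 kb of deep sequence for the 6 gene lists and for all genes with deep sequence. Mutant-only calls make up 0.862% of deep regions and 1.63% of the others, and density runs from 12.1 in adhesion and wiring receptors to 35.3 in transcription regulators.

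The genotype-specific regions were of middling to low rank. The 17 mutant-only members had a median mean rank of 70.4% from the top and the 140 control-only members 67.6%. The value was 29.2% for members called in all 4 libraries and 80.0% for those of 1 library. A strong peak is more easily called in every library, so this order of the classes is largely built in. The best-ranked mutant-only region was 3R:9849824-9849910 in Teh1, a gene for an auxiliary subunit of sodium channels, at 38.9% and 23.5% from the top in mutants 1 and 2, where its enrichment was 4.51-fold and 6.28-fold. Then came 2L:7940544-7940701 and 2L:7948890-7949056, both in Snoo. The last 2 of the best 5 lay in CG14459, at 3L:22621959-22622048, and in the kinase gene cdi, at 3R:19073046-19073113. Mean ranks of the 5 ran from 31.2% to 59.2%.

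Among control-only members the best-ranked was 3R:28624659-28624742 in CG10011, at 23.6% and 25.8% from the top in controls 1 and 2, where its enrichment was 8.05-fold and 6.50-fold. The next lay at 3L:7828310-7828443 in Pdp1, with a mean rank of 27.2%. The others were 2L:2924344-2924531 in lilli, a gene of the AF4 family of elongation factors, 2L:9211565-9211689 in tai and 2L:9147866-9147976 in CG32982, with mean ranks from 30.5% to 34.3%. The background was lower in both mutants, and its part in any single region was not tested.

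Among members called in all 4 libraries, the best mean rank belonged to 3L:22773382-22773954 in SPoCk, the gene of a secretory-pathway calcium pump, 13963 bp from the nearest gene end. Its best peak stood in the top 0.729% and 0.521% of the mutant lists and 0.271% and 0.253% of the control lists, with fold enrichments of 21.2 and 23.8 in the mutants against 28.5 and 27.7 in the controls. The region 2L:13878809-13879318 in CenG1A, an Arf GTPase-activating protein gene, had folds of 22.2 and 26.5 in the mutants against 34.0 and 31.0 in the controls. Next were 3R:10614204-10614992 in hth, 3L:3543375-3543726 in Eip63E, a cyclin-dependent kinase gene, and 3L:17576325-17576852 in Eip74EF. The hth region had folds of 15.7 and 16.9 in the mutants against 19.1 and 19.6 in the controls. A fold enrichment is set against its own library's background, so the values are not compared between libraries.

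After the sls region, the longest members called in all 4 libraries lay in Msp300 (2L:5174708-5176552, 1845 bp), CG34353 (3R:27792984-27794638, 1655 bp), bru3 (3L:13578406-13579933, 1528 bp) and Pde1c (2L:11897178-11898549, 1372 bp). Each was split into several peaks in at least 2 libraries; the Msp300 region had 3 and 3 peaks in the mutants against 2 and 4 in the controls. The 3 members called in all 4 libraries that lay farthest from a gene end were all in fru. They were 3R:18480675-18481088, 3R:18481644-18481990 and 3R:18474094-18474532, at 64705, 63769 and 60040 bp. The second of them was among the stronger members, in the top 5.94% and 3.74% of the mutant lists and 1.88% and 3.13% of the control lists.

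Over the 161 hosts with at least 5 deep regions, the log2 ratio of mutant to control mean region number, with 0.5 added to both, ran from -2.81 to 1.00, with a median of -0.32. The highest ratios belonged to tutl and Mob2 (1.00 each), kmr (0.74), CG34347 (0.51) and Con (0.26). In tutl, an immunoglobulin-superfamily gene, 2 and 3 regions were called in the mutants against 0 and 2 in the controls. In kmr the value rests on mutant 1, with 7 and 2 in the mutants against 2 and 3 in the controls. The lowest belonged to CG4374 (-2.81), nmo (-1.51), SPoCk and bbg (-1.42 each) and CG31145 (-1.20). CG4374 had 0 and 0 of 5 regions called in the mutants against 2 and 4 in the controls, so the size of its ratio depends on the added 0.5. In bbg 0 and 2 of 5 were called in the mutants against 3 and 4 in the controls. CG31145 had 5 and 4 of 14 regions called in the mutants against 12 and 10 in the controls. In nmo, a kinase gene, control 2 alone made the difference, with 4 and 2 regions in the mutants against 3 and 16 in the controls. SPoCk, which holds the best-ranked of the members called in all 4 libraries, had 1 and 1 in the mutants against 4 and 3 in the controls.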

How the data were processed

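Each of the 4 libraries has 1 deposited peak list without a header, so peaks were called per library. Per the submitters' processing notes, the tools were bcl2fastq 2.20, MultiQC 1.5, cutadapt 2.3, Bowtie2 2.4.1, Picard and MACS2 2.2.7.1, and the build was BDGP6; settings, duplicate removal and any shift of reads for the transposase cut are not given in the sources used here, and a shift would move borders by a few bases. The fold enrichment (a ratio), −log10 p and −log10 q of a peak are the authors' values against the library's own background, used here only to rank, describe or filter peaks within a list. The deposited score repeats −log10 q and was not used.

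Peaks of the main arms sharing at least 1 bp were joined. Gene limits came from a RefSeq table of Release 6 with 17673 genes on these arms, matched by position; 1 name each of the RNA-binding and muscle lists was unmatched. The members, gene lists and markers were chosen with earlier results of these data known. Named hosts are the 15 with the most regions, the 5 leading genes per list and the 5 highest and lowest ratios; named regions are the best-ranked, longest and farthest ones and the best-ranked of each genotype-specific class. Others are marked as chosen later.

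Read depth is not in the lists. A whole-number summit pileup and a local background were solved from fold and −log10 p under a Poisson model where −log10 p did not pass 250, which left 98.7% to 99.8% of peaks solved, and the most frequent background stands for depth; another measure would scale the libraries differently. Lists scaled for depth kept peaks that would still pass after scaling to the lowest background. Lists of equal length were cut at the 25528 peaks of lowest p. Genotypes were compared by exact permutation of library values, members with the rest by exact sign flips within libraries. Joining, distance and pileup steps were tested on simulated data. Python 3.11.15, pandas 2.3.3 and scipy 1.17.1 were used. No sequence was used.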

Additional observations from a re-analysis of the deposited data

How the results depend on the processing

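The 8 results on genotype and position had 108 values under other settings; 90 had an unchanged direction and, for counts of regions, lay within 1.5 times the count. The number of deep peaks, their density and width relative to the rest and their share in regions of all libraries kept their direction under every alternative run. The genotype difference in the deep share turned to 0.167 points with −log10 q of at least 5; the cause was not tested. The rank difference from other peaks turned to 1.25 points with that threshold and 1.23 points at 5000 bp from gene ends, and ranged from -2.07 to 0.278 with 1 library left out.

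Mutant-only members numbered 31 at equal list length (1.76%, against 2.65% of all regions). With summits joined within 150 bp they numbered 37 (1.74% against 2.41%). The cause was not tested. A distance of at least 5000 bp admits more regions by construction. It gave 54 mutant-only members (1.30%, against 1.76% of all regions) and 304 control-only members (7.34% against 5.93%). At 20000 bp there were 5 (0.855% against 1.76%) and 39 (6.67% against 5.93%). With 1 library left out, mutant-only members ranged from 36 (without control 1) to 217 (without mutant 2) and control-only members from 218 (without mutant 1) to 404 (without control 1), since a genotype with 1 library admits every call of it. The difference in deep peaks then ranged from -301.5 to -221.5, that in the share from -0.514 to -0.213 points, the density difference from -56.9 to -53.4 per Mb, the width difference from 14.3 to 17 bp and the difference in regions of all libraries from 2.29 to 5.53 points.

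Taking the replicate number as a block (replicate block), the paired differences were -261 peaks and -0.362 points (exact sign-flip test, p = 0.5 for both, the smallest that 2 pairs allow). Deviations of same-numbered libraries correlated at -0.0960 over all regions and -0.0593 over the members. The labels do not say whether same-numbered libraries shared a day or cross, and this was not tested.

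Alternatives for the region counts of the 15 leading hosts and for the host gene shares were chosen after the data were seen. The region counts stayed within 1.5 times in 186 of 195 cases. The shares were not scored in this way. The share of hosts higher in both mutants was 0.621% in the main setting. It ran from 0% with −log10 q of at least 3 to 7.86% at equal list length. fru led in all settings but protein-coding genes only and 5000 bp, in which Eip75B led with 51 and 54 regions. At the lower background of the mutants, weak regions may be missed there, so a missing call is not a closed site.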

Other observations

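Long stretches of some genes held almost no called region. These genes were named after their values were seen. Of 145 genes with at least 20 kb of deep sequence, 7 had no deep region in any library. Nlg3, which encodes a neuroligin of synapses, had none in 36.6 kb. The octopamine receptor gene Octalpha2R had none in 29.9 kb and the acetylcholine receptor gene nAChRalpha1 none in 26.0 kb. The Musashi gene msi had none in 24.5 kb, whereas its relative Rbp6 had 28 regions in 139 kb. Mur89F, side-II and CG42750 were the others.

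A single region was called in the 57.4 kb of deep sequence of fred, in mutant 1, and a single one in the 42.7 kb of the neighbouring ed, in mutant 2. Ubx, a homeotic gene, had 1 region in 43.5 kb, and that one was called in all 4 libraries. Over the 145 genes the density ran from 0 to 81.7 regions per 100 kb with a median of 19.1. The densest were Teh1 with 18 regions in 22.0 kb, jim, Eip75B, Eip74EF and SNF4Agamma, the gene of the gamma subunit of AMP-activated kinase. SNF4Agamma had 14 regions in 26.1 kb, with 7 and 12 called in the mutants against 12 and 12 in the controls.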
